A study of Caenorhabditis elegans with 2 samples.

Results

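The subject here is chromosome X in a genome-wide map of NHR-237, a nuclear hormone receptor of Caenorhabditis elegans. Of the 7699 regions in the list of peaks and background made from both replicates pooled, 1592 (20.7%) lay on X. They were taken by their chromosome alone. The map came from ChIP-seq, in which DNA bound by a protein is pulled down with an antibody and sequenced. The animals were whole first-stage (L1) larvae of strain OP228, recorded as males and females pooled, in 1 group of 2 biological replicates. The share of each sex is not known here. Strain OP228 carries the mutation unc-119(ed3) on chromosome III and the integrated transgene wgIs228, from which NHR-237 is made as a fusion with eGFP. Both replicates carry the mutation and the transgene, and no untagged animals or input samples were analysed here. Because whole larvae were used, binding in a few cells and weak binding in many cells cannot be told apart.

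Nuclear hormone receptors are transcription factors that bind DNA through zinc fingers, and some of them are switched by small lipid-like ligands. In C. elegans, hermaphrodites have a pair of X chromosomes and males have a single one. A dosage compensation complex, built around a condensin and brought to X by SDC-2, binds both hermaphrodite X chromosomes and lowers their transcription. It loads at recruitment sites, many of which hold copies of a short sequence called the MEX motif, whose core reads GCGCAGGG. Genes of the germ line, and many genes used in every tissue, are scarce on X.

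Each region carries a signal value, a score from the authors' peak caller of unstated scale, which served to describe and rank regions within a list, and values of different lists are not on a known common scale. X regions are numbered here by that value in the pooled list, region 1 being the strongest. The authors also deposited a shorter list of regions that passed their test for the irreproducible discovery rate (IDR), a measure of how well ranks in the replicates match. The IDR list is the 970 pooled regions of highest signal, and it includes some whose ranks in the replicates lie far apart. Of the X regions, 163 (10.2%, 95% Clopper-Pearson interval 8.79 to 11.8%) were in the IDR list, against 12.6% of all pooled regions. These 163 were the strongest on X, with a median signal of 75.0 and a range of 52.7 to 344, and the other 1429 had a median of 27.8. All 163 had a deposited q-value (significance corrected for multiple testing) under 0.05, but only 5.67% of the other 1429 did. Outside the IDR list on the other chromosomes the share was 6.94%. Over the whole pooled list it was 15.3% on X and 19.2% elsewhere. A pooled region outside the IDR list was therefore not shown to be bound. At the edge of the list, region 163 at chrX:16902002-16902365 had a signal of 52.7 and region 164 at chrX:6737675-6738038 had 52.4. All positions are on the ce11 build, and intervals on shares cover counting error only. The number of reads behind the lists is unknown.

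The letters under the strongest X regions are shown first, since the motif counts given later refer to them. The core GCGCAGGG, read on either strand and lying within 100 bp of the summit, was found in 8 of the 13 strongest X regions and in 10 of the 25 strongest (40.0%). The cut at 25 was planned, and the cut at 13 was taken from the data. The 8 windows below were chosen from those 10 to show the core in its different settings: intergenic (regions 2, 6, 10 and 13), inside introns (3 and 9), upstream of a gene (5) and inside a coding exon (17). Each runs 30 bases to either side of the core, 5′ to 3′ on the strand that carries it, with the core in capitals, and was read from RefSeq's copy of that assembly, WBcel235.
Region 2, chrX:4209236-4209303, minus strand: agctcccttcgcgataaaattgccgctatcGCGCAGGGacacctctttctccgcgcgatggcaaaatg
Region 3, chrX:2997093-2997160, minus strand: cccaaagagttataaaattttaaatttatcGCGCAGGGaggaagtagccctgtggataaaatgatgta
Region 5, chrX:14525870-14525937, minus strand: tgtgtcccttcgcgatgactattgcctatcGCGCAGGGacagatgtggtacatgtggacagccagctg
Region 6, chrX:11094196-11094263, minus strand: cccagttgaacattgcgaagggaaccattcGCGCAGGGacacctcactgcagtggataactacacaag
Region 9, chrX:6296518-6296585, plus strand: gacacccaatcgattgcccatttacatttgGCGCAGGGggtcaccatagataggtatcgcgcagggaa
Region 10, chrX:806644-806711, plus strand: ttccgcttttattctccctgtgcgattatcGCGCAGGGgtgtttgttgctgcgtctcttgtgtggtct
Region 13, chrX:8036405-8036472, plus strand: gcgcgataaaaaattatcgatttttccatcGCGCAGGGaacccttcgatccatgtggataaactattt
Region 17, chrX:5429560-5429627, plus strand: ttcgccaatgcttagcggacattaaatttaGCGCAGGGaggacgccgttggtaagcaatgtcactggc
In the window of region 9 a second copy of the core stands in lower case near the end.

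Region 1, the strongest on X, had no exact core within 100 bp of its summit, and it is shown by the 30 bases on either side of the summit.
Region 1, chrX:9465845-9465905, plus strand: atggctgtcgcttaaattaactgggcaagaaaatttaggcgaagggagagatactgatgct
It holds the letters GCGAAGGG, which differ from the core at 1 place. Reading the windows of regions 2, 5 and 6 shows the same letters on one strand or the other, beside the core. Because this variant was picked from the printed letters, its counts are given later as a description with no test. Region 7 at chrX:12363107-12363224 also had no core inside the window, and 1 lay just outside it, at 101 bp from the summit.

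Region 1 lay at chrX:9465790-9465920, between genes, with a pooled signal of 344 and signals of 173 in replicate 1 and 168 in replicate 2. Region 2, at chrX:4209184-4209364, was 1780 bp upstream of F20B6.9 and had a pooled signal of 329, with 181 in replicate 1 and 146 in replicate 2. Region 3 lay in an intron of Y41G9A.17 at chrX:2997022-2997177, with 316 in the pooled list, 153 in replicate 1 and 158 in replicate 2. All 3 ranked among the 15 strongest regions of the whole genome in each replicate. Region 4 at chrX:16682043-16682183 had a pooled signal of 296, with 171 and 127 in the replicates, and its nearest gene start was 2578 bp away. Region 5, whose summit lay 731 bp upstream of nspc-17, a member of a nematode-specific peptide family, had 288 with 173 and 121.

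Of the next 5 regions, 3 were intergenic, 1 was in a promoter and 1 was in an intron. Region 6 at chrX:11094018-11094381 had a pooled signal of 280, signals of 141 in replicate 1 and 140 in replicate 2, and a gap of 3986 bp to the nearest gene start. Region 7, whose summit lay 1760 bp past the start of F19H6.5, had 276 with 154 and 123. Region 8 had its summit 299 bp upstream of puf-9, which encodes a Pumilio-family RNA-binding repressor. Its signal was 273 in the pooled list, 169 in replicate 1 and 109 in replicate 2. Region 9 lay in an intron of mom-1, which encodes the Porcupine enzyme that lipid-modifies Wnt proteins, with 267, 156 and 113. Region 10 at chrX:806560-806720 had 260, 138 and 127, and its nearest gene start was 3901 bp away.

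Region 11 at chrX:13700841-13700948 had a pooled signal of 251, ranked 39 in replicate 1 (116) and 8 in replicate 2 (137), and lay 6047 bp from the nearest gene start. Region 12, 1392 bp from the start of F55G7.5, had a pooled signal of 233 with 137 and 104. Region 13 at chrX:8036366-8036580 lay 4872 bp upstream of xol-1, the switch gene that sets male fate when X is single, and had 225 in the pooled list, 129 in replicate 1 and 96.4 in replicate 2. Of these 13 regions, 11 had summits outside every promoter. A promoter is here the stretch from 1000 bp upstream to 200 bp downstream of any protein-coding start site. The list gives nearly every region a width of 364 bp, and the 11 narrower X regions, from 108 to 223 bp wide, were all among these 13. The cut at 13 is the rank of the last narrow region, so shares of these 13 are a description only.

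From region 14 on, gene promoters became common. The summits of region 14 (signal 219) and region 15 (193) lay upstream of fbxb-58, an F-box gene, and of nipi-3, a Tribbles-family pseudokinase gene of the innate immune response. Region 16 (192) was upstream of sym-4, and region 17 (188) was the single X IDR region in a coding exon, that of pks-1, a polyketide synthase gene. Region 18 (188) lay 1052 bp past the start of T27A8.7, and region 19 (188) was 633 bp upstream of the insulin-like gene ins-39. Region 20 (183), at chrX:16929523-16929886, was 5769 bp from a gene start.

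Regions 21, 22 and 25 were at housekeeping genes, each with its summit 343 to 384 bp upstream of the start. The ribosomal protein gene rpl-11.2 had a pooled signal of 180, with 108 in replicate 1 and 73.8 in replicate 2. The elongation factor gene eef-1A.2 had 174, with 85.3 and 87.0, and vha-12, a subunit of the vacuolar proton pump, had 153, with 97.8 and 54.4. Region 23 (163) lay 1029 bp upstream of ain-1, a GW182-family gene of microRNA silencing, and region 24 (157) 339 bp upstream of dpy-23, which encodes a clathrin adaptor subunit. Over the 25 strongest X regions 10 summits were in promoters, 12 were intergenic, 2 were in introns and 1 was in a coding exon.

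**Figure D1:**
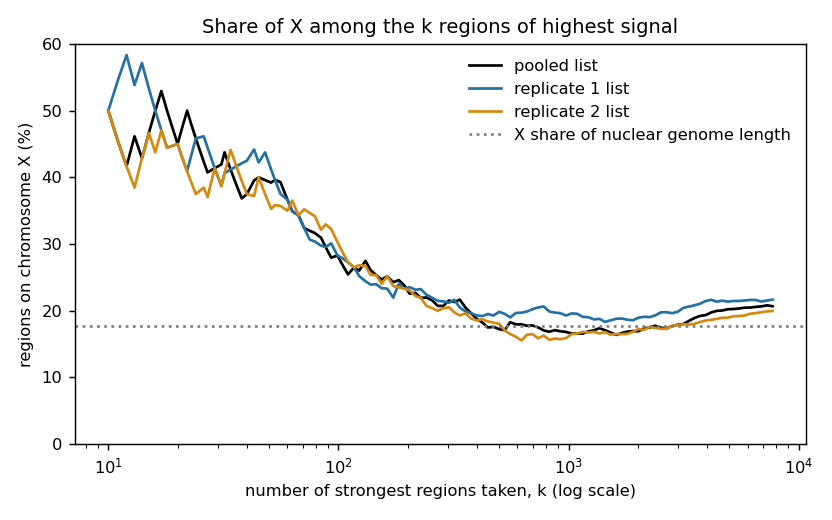
The share of regions on X (vertical axis, percent) among the k regions of highest signal (horizontal axis, log scale) for the pooled list and each replicate list, with the share of X in nuclear genome length as a dotted line. All 3 curves start at 50% for the 10 strongest regions and come down to between 16 and 19.3% at 970 regions.

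The weight of X among the strongest regions fell quickly with rank in all 3 lists. X held 20 of the 50 strongest pooled regions (40.0%, interval 26.4 to 54.8%), 28 of the 100 strongest (28%), 46 of the 200 strongest (23.0%) and 163 of the 970 strongest (16.8%), while it makes up 17.7% of the nuclear genome. In the replicates, X held 21 and 18 of the 50 strongest regions, and 28 and 30 of the 100 strongest. For the 100 strongest pooled regions the share on X did not pass the test against 20.6% of the remaining regions (two-sided Fisher exact test, adjusted p = 0.099). For the 50 strongest it did (Fisher exact, adjusted p = 0.0028), and for the 100 strongest of replicate 2 alone as well (Fisher exact, adjusted p = 0.020). It did not for the 200 strongest, the 100 strongest of replicate 1 alone or the ce10 lists (Fisher exact, adjusted p = 0.43, 0.16 and 0.15). With all regions that hold the core left out, X had 17 of the 100 strongest. That was 3.49 percentage points below its share of the remaining regions (Fisher exact, adjusted p = 0.45). This setting was chosen after the data were seen. It could not raise the count on X, since no IDR summit elsewhere has the core, so no conclusion is drawn from the fall. That X regions were among the strongest was known before the shares of the 50, 100 and 200 strongest were chosen. None of these shares, nor the p-values that passed, is therefore independent evidence.

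Over the whole pooled list X had more regions for its length than the other 5 nuclear chromosomes together, and a smaller share of them passed the IDR step. There were 89.8 regions per Mb on X and 74.0 per Mb on the other 5, but 9.20 and 9.78 IDR regions per Mb. Chromosome V had fewer IDR regions per Mb than X, 6.69, and I to IV had 9.32 to 13.1. The share of V regions in the IDR list was also below that of X, 9.87%, while on I to IV it was 11.7 to 17.1%. The 10.2% of X regions in the IDR list compared with 13.2% of the regions elsewhere, a difference that passed the test (odds ratio 0.75, two-sided Fisher exact test, adjusted p = 0.0017). Taking the 970 strongest of 7699 regions of replicate 1 alone in place of the pooled lists, the shares were 11.2% and 13% and the difference did not pass (Fisher exact, adjusted p = 0.076), nor did it with the 485 strongest regions of the IDR list (Fisher exact, adjusted p = 0.059). Here and in each test that follows the units are regions of 1 list, not animals, so a p-value does not cover the spread between animals.

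**Figure D2:**
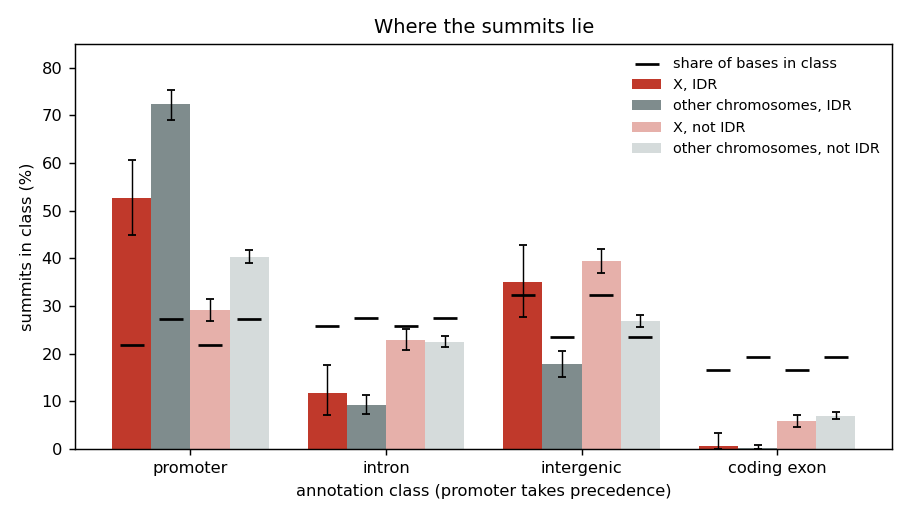
The percent of summits (bars, with 95% Clopper-Pearson intervals) in promoters, introns, intergenic sequence and coding exons, for X and the other chromosomes and for regions inside and outside the IDR list. Black dashes mark the percent of bases in each class. Promoters held 52.8% of X IDR summits and 72.4% of IDR summits elsewhere.

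X IDR regions as a whole, the strongest included, differed from IDR regions elsewhere in where they lay relative to genes. Of the 163 X IDR summits, 86 (52.8%, interval 44.8 to 60.6%) were in promoters, 57 (35.0%) were intergenic, 19 (11.7%) were in introns, 1 was in a coding exon and none was in a UTR. On the other chromosomes 584 of 807 IDR summits (72.4%) were in promoters and 143 (17.7%) were intergenic. The promoter shares differed by 19.6 percentage points (odds ratio 0.43, two-sided Fisher exact test, adjusted p = 3.2e-06). Promoters take up fewer of the bases on X, 21.8% against 27.2%, and relative to that the promoter share was 2.42 times the base share on X and 2.66 times elsewhere. No test was made of these ratios.

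The weak regions outside the IDR list showed the same order at lower levels. On X 416 of 1429 summits (29.1%) were in promoters, against 2136 of 5300 (40.3%) elsewhere (Fisher exact, adjusted p = 5.8e-14). Relative to bases, that was 1.33 times on X and 1.48 times elsewhere.

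X regions were also farther from gene starts. The median distance from an X IDR summit to the nearest start of a protein-coding gene was 772 bp, against 287 bp on the other chromosomes, and the longest was 15196 bp, at region 17. More than 2 kb separated 51 of 163 X IDR summits (31.3%, interval 24.3 to 39%) from every such start, against 104 of 807 (12.9%, 10.7 to 15.4%) elsewhere (odds ratio 3.07, two-sided Fisher exact test, adjusted p = 1.4e-07). Outside the IDR list the distal shares were 38.8% and 28.5% (Fisher exact, adjusted p = 4.3e-13). The share of bases over 2 kb from a start was not counted, so the distal shares are not set against it. Intergenic bases outside promoters made up 32.3% of X and 23.5% of the other chromosomes. Among the 25 strongest X regions 10 were distal (40.0%), among regions 26 to 50 there were 8 (32.0%), and among regions 101 to 163 there were 20 of 63 (31.7%).

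**Figure D3:**
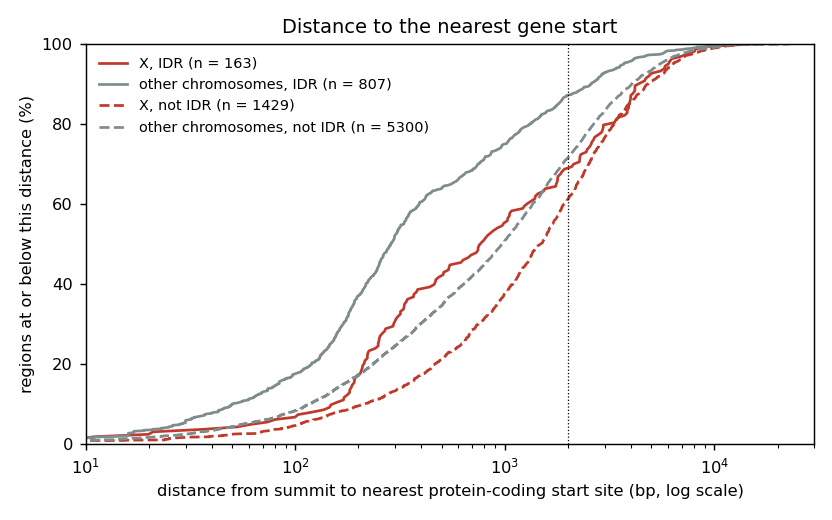
Cumulative percent of regions (vertical axis) by distance from the summit to the nearest protein-coding start site (horizontal axis, bp, log scale), for X and the other chromosomes, inside (solid) and outside (dashed) the IDR list, with 2 kb dotted. The X curves run to the right of the others, with medians of 772 bp for X IDR regions and 287 bp for IDR regions elsewhere.

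Many distal X regions had another kind of gene nearby. When start sites of all annotated genes were counted, noncoding RNA genes and pseudogenes included, 32 of the 51 distal X IDR summits had one within 2 kb, and the distal difference between X and the other chromosomes was 5.46 percentage points in place of 18.4 (Fisher exact, adjusted p = 0.026). By these starts the distal share of X IDR summits was 11.7% in place of 31.3%. It also fell at IDR summits elsewhere, from 12.9 to 6.20%, and at weaker X summits, from 38.8 to 20.4%. The promoter difference was likewise -9.63 points in place of -19.6 (Fisher exact, adjusted p = 0.011). Of 163 X IDR summits, 17 (10.4%) lay within 250 bp of a tRNA gene, against 77 of all 1592 X regions (4.84%), and 10 of the 17 were distal to protein-coding genes. Some of these tRNA genes stand in pairs that share a region, so 21 of the 276 tRNA genes on X (7.61%) had an IDR summit within 250 bp, against 11 of 336 (3.27%) elsewhere. With any pooled region the shares were 29.7% and 25%, and no test was made of either.

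The tRNA genes at the strongest of these summits were WBGene00022939, 244 bp from the summit of region 13, WBGene00023117 at region 32 (signal 131) and WBGene00022947 at region 39 (122). Replicate signals at the last were 63.8 and 58.7. Of the other classes of noncoding RNA on X, 1 of 33 snoRNA genes (D2021.6), 0 of 3 snRNA genes and 0 of 74 miRNA genes had an IDR summit within 250 bp. On the other chromosomes the counts were 21 of 313, 8 of 126 and 4 of 187, and the X classes are too small for a difference to be read from them. Reads from nearly identical tRNA genes can be hard to place, and how the authors did so is not known here.

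The MEX core was more common at X IDR summits than at weaker X summits or at IDR summits elsewhere. It lay within 100 bp of 17 of 163 X IDR summits (10.4%, interval 6.19 to 16.2%), of 7 of 1429 weaker X summits (0.490%, 0.197 to 1.01%) and of 0 of 807 IDR summits on the other chromosomes, which allows a share of up to 0.456%. Both differences passed the test (two-sided Fisher exact tests, adjusted p = 3.4e-12 and 1.8e-13). Of 201 bp windows tiled over X, 0.0851% held the core, and of those over the other chromosomes 0.0553%. The median GC content around IDR summits was 45.3% on X and 43.3% elsewhere, against 33.3% around weaker X summits.

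Counted from the motif's side, X holds 81 copies of the core, or 4.57 per Mb, and 21 of them (25.9%, interval 16.8 to 36.9%) lay within 100 bp of an IDR summit. The other chromosomes hold 233 copies, or 2.82 per Mb, and none lay within 100 bp of an IDR summit. Of the 21 copies near X IDR summits, 17 were within 50 bp, with a median distance of 25 bp. The 7 copies at weaker X regions had a median distance of 70 bp. Regions 6, 9, 10 and 13 each held a pair of copies.

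**Figure D4:**
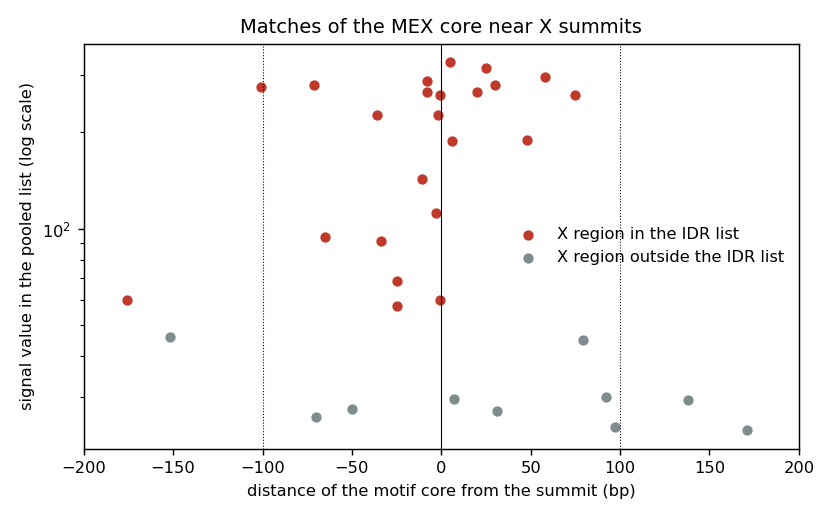
Each point is a copy of the MEX core on X, placed by its distance from the summit (horizontal axis, bp) and the pooled signal of the region (vertical axis, log scale), with dotted lines at 100 bp. Copies at IDR regions (red) gather around the summit, with a median distance of 25 bp within the dotted lines, and the strongest reaches 329.

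Regions with the core were strong in both replicates. Their pooled signals ran from 57.3 to 329 with a median of 188, while the median of the 146 X IDR regions without it was 73.1. Their median rank was 25 in the replicate 1 list and 32 in the replicate 2 list, against 442 and 509 for those without. The core was found in 10 of the 25 strongest X regions, 2 of regions 26 to 50, 2 of regions 51 to 100 and 3 of regions 101 to 163. These signals and ranks are a description, since X had been taken up knowing that its strongest regions stood out.

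The weakest of the 17 ranked lower in replicate 1. Region 104 at chrX:4395462-4395825, 6279 bp from the start of a gene, had a signal of 68.4 in the pooled list, 29.5 in replicate 1 (rank 992) and 38.5 in replicate 2 (rank 384). Region 141 at chrX:6250157-6250520 had 57.3, with 20.5 (rank 2171) and 40.4 (rank 341). Region 132 at chrX:2997121-2997484 overlaps region 3 and takes the same replicate peaks, so the 17 regions are not all separate sites.

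Regions with the core were mostly away from promoters. Of the 51 distal X IDR regions 12 held it (23.5%, interval 12.8 to 37.5%), against 3 of the 86 in promoters (3.49%, 0.725 to 9.86%), a difference that passed the test (odds ratio 8.37, two-sided Fisher exact test, adjusted p = 7.3e-04). The overlapping regions 3 and 132 both count among the 12, so the test takes 1 site as 2 units. The 3 promoters were those of nspc-17, ins-39 and R04E5.9. With core regions left out, the distal share of X IDR regions was still 13.8 percentage points above that of the other chromosomes (Fisher exact, adjusted p = 1.3e-04), a setting chosen after the data were seen.

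Longer and looser forms of the motif were also most common at X IDR summits. The 9 letters CGCGCAGGG were found at 12 of 163 X IDR summits (7.36%), 3 of 1429 weaker X summits and 0 of 807 IDR summits elsewhere. With up to 1 mismatch allowed in those letters the counts were 25 of 163 (15.3%), 22 of 1429 (1.54%) and 21 of 807 (2.60%), so the looser form was also found at IDR summits elsewhere. The variant GCGAAGGG, chosen after the letters of region 1 were seen, was found at 12 of 163 X IDR summits (7.36%), 2 of 1429 weaker X summits, 2 of 807 IDR summits elsewhere and 9 of the 25 strongest X regions. Of tiled windows on X 0.155% held the variant, and 0.113% on the other chromosomes. Core or variant stood at 23 X IDR summits, and both at 6. At least 1 of them was found in 13 of the 25 strongest X regions, and in 10 of the 13 strongest, the cut taken from the data.

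Other short sequences were found at similar shares in X IDR regions and IDR regions elsewhere, or near the share of windows in general. The repeat GAGAGAGA was found at 14.1% of X IDR summits and 15.2% of those elsewhere, against 1.12% of windows tiled on X, and in 1 of the 25 strongest X regions. The E-box CACGTG was found at 7.36% and 5.82%, and 2.64% of X windows held it. The nuclear receptor half-sites AGGTCA and AAGTCA were found at 5.52% each of X IDR summits and at 4.46% and 4.83% of IDR summits elsewhere. Of X windows 5.30% and 10.7% held them, and of weaker X summits 4.83% and 11.2%. The GATA-type letters TGATAA were found at 6.13% of X IDR summits and 7.56% of IDR summits elsewhere, against 18.1% of weaker X summits and 19.1% of X windows. These are descriptions without a test, and a short run of letters in a window is not a bound site.

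The counts per gene were as follows. An IDR summit lay in the promoter of 95 of 2731 protein-coding genes on X (3.48%) and of 836 of 17242 elsewhere (4.85%), against 4.66% of all 19973 genes. With any pooled region the shares were 17.8% and 18.5%, and no test was made of either. The lists of genes that follow were named with earlier results known, and their counts are read against 4.66%.

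Ribosomal protein and translation factor genes on X are few. The ribosomal protein list has 2 members there, of which rpl-11.2 had an IDR summit, while elsewhere 55 of 76 did. The translation factor eef-1A.2 was 1 of 3 on X, against 11 of 36 elsewhere. The chaperone genes hsp-3, an endoplasmic reticulum Hsp70, and dnj-14, a DnaJ protein, were 2 of 5, with signals of 133 and 68.2 and replicate values of 85.8 and 49.1 for the first and 38.5 and 29.2 for the second. The proton pump genes vha-12 and vha-15 (signal 70.6) were 2 of 3, and rab-14, a vesicle-traffic GTPase gene (61.9), was 1 of 3.

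Nuclear hormone receptor genes had IDR summits in 5 of 23 promoters on X and in 9 of 246 elsewhere. The 4 strongest on X were nhr-48 with a signal of 76.6 (42.4 in replicate 1 and 32.4 in replicate 2), nhr-32 with 62.5 (42.5 and 17.1), nhr-17 with 62.1 (33.2 and 26.8) and nhr-1 with 61.4 (39.7 and 17.3). They ranked from region 80 to region 128 of X. No test was made of the list.

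Genes that count X or act on X are given one by one, since lists this small hold few IDR promoters at a share of 3.48% on X. Of the X signal genes, which report the number of X chromosomes, ceh-39, a homeobox gene, had a weak region 149 bp upstream (34.7 in the pooled list, 19.8 and 17.0 in the replicates) and fox-1, an RNA-binding protein gene, had one of 28.1. The promoter of sex-1, itself a nuclear hormone receptor gene, had none. Their target xol-1 had a region of 25.6 in its promoter, listed in replicate 2 and not in replicate 1. The strong region 13 lies farther upstream, and a link between it and xol-1 was not tested. Of the dosage compensation genes on X, sdc-2 had an IDR region 368 bp upstream with a signal of 70.3 (37.5 and 35.1), and sdc-1 had none. The 8 dosage compensation genes on the other chromosomes had no IDR region.

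Several lists of genes used in particular tissues had no X member with an IDR summit. None was found in the promoters of 32 neuropeptide genes, 27 collagen genes, 18 ligand-gated ion channel genes, 18 homeobox genes named ceh, 10 TWK potassium channel genes, 7 cytochrome P450 genes, 6 acetylcholine receptor genes, 5 vitellogenin genes and 4 UDP-glucuronosyltransferase genes. On the other chromosomes these lists also had few, with 2 of 70 neuropeptide genes, 3 of 129 collagen genes and 1 of 45 ceh genes. Of the heterochronic genes, which time larval stages, lin-14 (37.8) and daf-12 (24.3) had weak regions and hbl-1 had none. With 3.48% of X genes bound in general, lists of this size hold few bound genes in any case, and nothing particular to them is read from these counts.

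**Figure D5:**
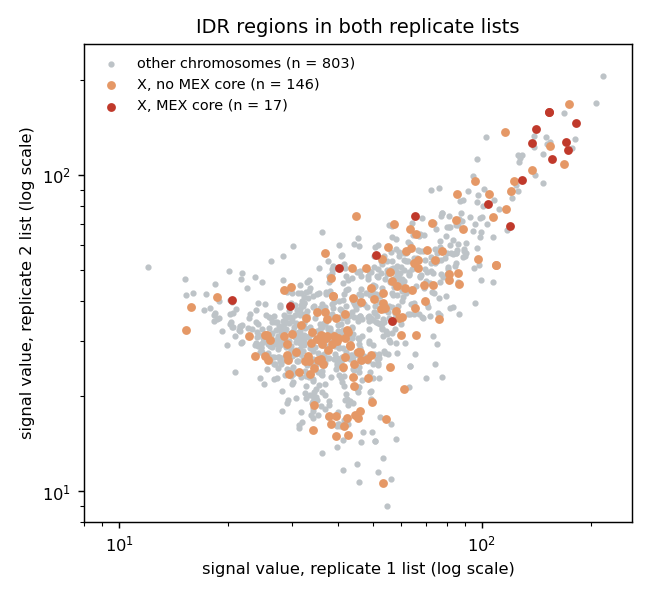
Signal of IDR regions in replicate 1 (horizontal axis) and replicate 2 (vertical axis), both on log scales, for regions found in both replicate lists. The 17 X regions with the MEX core (red) include 10 of the 25 strongest X regions, and those 25 are all among the 970 strongest of both replicates.

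All 163 X IDR regions overlapped a region in each replicate list by at least 1 bp, and 803 of 807 elsewhere did. Since the IDR list was made from the replicate lists, this is no test. Outside the IDR list 969 of 1429 X regions (67.8%) were in both replicate lists, 236 in replicate 1 alone, 223 in replicate 2 alone and 1 in neither. Elsewhere 70.1% were in both, and the difference did not pass the test (two-sided Fisher exact test, adjusted p = 0.11, difference -2.28 percentage points). The strongest X region with no overlap in the replicate 1 list was at chrX:3106101-3106464 near K10B3.5 (signal 36.0), and in the replicate 2 list it was at chrX:10377669-10378032, 82 bp upstream of rme-4 (52.0).

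Signals in the replicates had a Spearman rho of 0.67 over the 163 X IDR regions and 0.50 over 803 elsewhere. This describes regions of the same libraries selected to agree, and carries no p. Cut at equal length, 187 of the 970 strongest regions of replicate 1 were on X (19.3%), and 114 of these (61.0%) overlapped one of the 970 strongest of replicate 2, against 64.9% elsewhere (Fisher exact, adjusted p = 0.35). Counted from replicate 2, 155 were on X (16%), and 113 (72.9%) overlapped one of the 970 strongest of replicate 1, against 63.3% (Fisher exact, adjusted p = 0.027). The sign of the difference thus changed with the replicate started from, and the second count was chosen after the data were seen.

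Along X the IDR regions were spread over the whole chromosome. Cut into 3 stretches of equal length, the left held 45, the middle 43 and the right 75, out of 459, 561 and 572 pooled regions. Copies of the core near a pooled summit were at 12, 5 and 7 regions in the same order. In the 17 full megabases the number of IDR regions ran from 4 to 16 with a median of 9. The longest stretch with no IDR summit ran over 629848 bp, from chrX:8836027 to the summit of region 1 at chrX:9465875. The median gap between neighbouring summits was 73487 bp, and 3 neighbouring pairs overlapped.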

How the data were processed

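ChIP-seq of eGFP-tagged NHR-237 was done in 2 biological replicates of whole L1 larvae, per the labels. Whether the antibody recognised the tag or the factor is not settled by the labels. Per the readme files, the authors made a list from each replicate with a control, a pooled list from both, and the IDR list from these 3. The control was not analysed here. Neither aligner, peak caller nor IDR threshold is given in the sources used here. The deposited signal value is a score of the authors' caller, the deposited q-value is −log10 of q by the file format, and a further deposited column gives the summit. The depth is unknown.

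X regions were the rows of the pooled ce11 list on X, and they and the gene lists were chosen with earlier results of these data known. Genes came from Ensembl release 115 (WBcel235, the coordinates of ce11) and bases from RefSeq. A replicate signal is that of the strongest region overlapping by at least 1 bp. Shares were compared by two-sided Fisher exact tests on region counts, adjusted by Benjamini-Hochberg over 11 tests with a threshold of 0.05. The test code was checked on simulated data. Intervals are 95% Clopper-Pearson. Motif matches are exact, on both strands, with the whole match within 100 bp of the summit, and CGCGCAGGG contains GCGCAGGG. Named were the 25 strongest X regions, each with a gene within 2 kb, up to 4 IDR-bound X members of each list, up to 3 noncoding genes of a class, every X gene of the sex and dosage lists, and the strongest region missing from a replicate. The genes that hold a summit (Y41G9A.17, mom-1 and pks-1), the gene R04E5.9 and the weak heterochronic genes were named after their values were seen. At region 13 xol-1 was named although its start lies over 2 kb away. The symbol sex-2 matched no gene. Alternatives were the other lists, promoter and distance limits, motif windows and forms, overlap rules and list lengths. Python 3.11.15, numpy 2.4.6, pandas 2.3.3, scipy 1.17.1 and matplotlib 3.10.9 were used.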

Additional observations from a re-analysis of the deposited data

How the results depend on the processing

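Of 62 alternative values of the 11 tests, 55 kept their direction and their side of the threshold, among them every value of the promoter, distal and MEX core comparisons. The lower IDR share of X (-2.98 percentage points) ranged from -3.14 to -1.77 when 1 replicate was left out, and was -1.48 with the 485 strongest of the IDR list. Without replicate 2 and with those 485 it no longer passed. The higher X share of the 100 strongest regions (7.42 points) ranged from 6.42 to 10.2 with 1 replicate left out, passing without replicate 1. For the 50 strongest it was 19.4. With regions holding the core left out, a setting chosen after the data were seen, it was -3.49. That setting could not raise the count on X. That X regions were among the strongest was known beforehand, so none of these shares is independent evidence. The equal-rank agreement (-3.92 points) became 4.20 at 485 regions a list and 9.59 from replicate 2 to replicate 1. The cause was not tested. The share in both replicate lists needs both, and the stricter IDR list leaves it as it was. No paired analysis was possible because there is 1 group. Read depth is unknown, so a region missing from a list was not shown to be unbound.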
